A study of Mus musculus with 10 samples.

Results

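In all, 10 genes that encode neuropeptide precursors were read from the gene table of hippocampal synaptoneurosomes: the opioid precursors Penk and Pdyn, the tachykinin precursors Tac1 and Tac2, and Crh, Trh, Adcyap1, Cartpt, Cort and Nts. They were chosen by name, as the rows whose Ensembl identifier maps to these symbols, and all 10 of 10 were found among 22255 genes. Synaptoneurosomes are pinched-off and resealed synaptic compartments prepared from brain tissue. The animals of both groups were wild-type C57Bl/6J mice given vehicle or AM6545, a peripherally restricted blocker of the cannabinoid receptor CB1, over a sub-chronic course, with 5 libraries per group. The labels give no dose, day, age or sex, and do not tell if animals were pooled for a library, so p-values measure the spread between these libraries.

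Neuropeptides are cut from larger precursor proteins, stored in dense-core vesicles and released mainly when neurons fire strongly. They act on G protein-coupled receptors, often at a distance from the release site. In the hippocampus, Penk is made by interneurons and Pdyn by dentate granule cells, tachykinins and cortistatin mark groups of inhibitory neurons, and Crh is made by interneurons near the pyramidal layer. Most RNA of such precursors stays in the cell body, whereas the finished peptide travels down the axon.

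None of the 10 genes differed between AM6545 and vehicle libraries past the adjusted p threshold of edgeR. In 9 of them the groups differed by at most 0.19 on the log2 scale. Trh, the precursor of thyrotropin-releasing hormone, had a fitted difference of 3.20, which fell to 0.72 without the library AM6545 replicate 1. Penk was the most abundant of the 10 per transcript length and Trh the least abundant. Of the 10 genes, 6 were highest in the library vehicle replicate 1. Over all genes tested, 25.1% were highest and 23.5% lowest there.

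Library totals ranged from 18106112 to 25899794 counts and 16536 to 16880 genes had a count. The upper limit allowed by a count of 0 (3 counts) was 0.116 to 0.166 CPM (counts scaled to the library total), for counting error only. All other CPM values are scaled by edgeR's TMM factors as well. Marker sums of other tissues varied between libraries: choroid plexus markers summed to 95.6 CPM in vehicle replicate 4 and to 5335 CPM in vehicle replicate 1. Oligodendrocyte markers summed to 28188 CPM in AM6545 replicate 3, against 12224 to 20909 CPM elsewhere. Interneuron markers, which many of these peptides accompany, summed to 1210 to 1351 CPM in vehicle and 1291 to 1428 CPM in AM6545 libraries, and none of the 14 measured ones was at 0 throughout. Of 17 marker sums, 1 did not overlap between the groups: hilar mossy cell markers summed to 98.6 to 114 CPM in vehicle and 116 to 155 CPM in AM6545 libraries. Over all single genes tested, the groups did not overlap for 0.293%. Calb2, the calretinin gene of the mossy cell list, measured 65.9 ± 15.7 CPM in AM6545 and 46.4 ± 6.88 CPM in vehicle libraries (SD, n = 5 for both), a difference of 0.50 (edgeR unadjusted p = 0.00298, adjusted p = 0.9998). Its groups overlapped, as did those of Drd2, Csf2rb2, Calcrl and Ajap1, the rest of that list. Unadjusted edgeR p-values were 0.16, 0.526 and 0.646 for Drd2, Calcrl and Ajap1, and Csf2rb2 was not tested. Of 118 marker genes tested, 7 had an unadjusted edgeR p under 0.05, as did 1.88% of all genes tested. Calb2, Prkcd, Cux2, Aldh1l1, Cbln3 and Car8 were higher in AM6545, and Tshz2 was lower. Cbln3 and Car8 belong to a cerebellar list made after Cbln3 was seen, and both were highest in AM6545 replicate 1. The part of these markers in the values of the 10 genes was not tested. Because the samples are bulk RNA, fewer cells of a type and less RNA per cell cannot be told apart.

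The stretches just upstream of 4 of the genes are shown because these genes carry the patterns below. Trh stood apart in 1 library. Tac1 and Cort had the highest pairwise correlation over the 10 libraries, though not without vehicle replicate 1. Among the 8 genes for which such a stretch was available, Cartpt alone held a complete cAMP response element. That element, read TGACGTCA on both strands, is bound by CREB, a factor activated by neuronal firing. Its shorter form reads TGACG, or CGTCA on the other strand, and occurs on each strand inside the complete one, overlapping. Each sequence is the 250 bases before a RefSeq start on GRCm38.p6, 5′ to 3′ on the gene's strand, with matches in capitals. Trh lies at chr6:92244651-92244900 on the minus strand, Tac1 at chr6:7554811-7555060 on the plus strand, Cort at chr4:149126764-149127013 on the minus strand and Cartpt at chr13:99900684-99900933 on the minus strand.
Trh: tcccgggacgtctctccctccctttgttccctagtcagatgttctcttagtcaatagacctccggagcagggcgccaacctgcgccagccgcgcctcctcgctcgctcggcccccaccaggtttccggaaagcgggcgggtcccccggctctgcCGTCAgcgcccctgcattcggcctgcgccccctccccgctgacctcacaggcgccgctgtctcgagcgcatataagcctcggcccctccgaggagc
Tac1: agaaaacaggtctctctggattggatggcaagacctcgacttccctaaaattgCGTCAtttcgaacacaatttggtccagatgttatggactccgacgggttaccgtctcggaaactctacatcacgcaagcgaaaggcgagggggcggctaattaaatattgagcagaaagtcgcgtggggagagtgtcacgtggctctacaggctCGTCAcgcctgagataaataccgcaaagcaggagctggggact
Cort: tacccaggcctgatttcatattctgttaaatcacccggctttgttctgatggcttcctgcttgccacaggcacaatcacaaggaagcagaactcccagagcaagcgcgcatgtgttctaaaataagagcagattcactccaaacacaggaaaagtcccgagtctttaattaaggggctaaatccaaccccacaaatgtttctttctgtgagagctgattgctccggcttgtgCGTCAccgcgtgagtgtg
Cartpt: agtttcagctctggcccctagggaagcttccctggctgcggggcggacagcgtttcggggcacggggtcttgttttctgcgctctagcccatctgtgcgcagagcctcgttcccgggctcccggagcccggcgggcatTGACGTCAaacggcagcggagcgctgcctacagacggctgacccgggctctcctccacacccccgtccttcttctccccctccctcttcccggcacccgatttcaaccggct
RefSeq gave such windows for 8 of the 10 genes, not for Penk and Crh. The complete element was found in 1 of the 8, Cartpt, 112 bases before the start, and in 1.55% of all 32851 windows (1.77% of 27025 genes). The shorter form was found in 6 of the 8, all but Pdyn and Tac2, and in 17.8% of all windows (19.8% of genes). Of 2 TATA box spellings, TATAAA occurred in Adcyap1 (12.4% of all windows) and TATATA in Adcyap1 and Nts (5.25% of windows), and in Adcyap1 the spellings overlap. These are matches of letters, not measured binding.

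Levels were compared between genes per kilobase of transcript, as the mean over the 10 libraries. Penk stood at 56.3 ± 9.62 CPM per kb, Tac1 at 27.6 ± 5.51 and Nts, the neurotensin precursor, at 10.6 ± 2.60 (SD, n = 10). Pdyn followed at 8.69 ± 1.33, Cort at 6.26 ± 1.76, Tac2 at 4.11 ± 1.20 and Adcyap1, the precursor of the cAMP-raising peptide PACAP, at 3.92 ± 0.587 CPM per kb. The lowest were Crh at 2.93 ± 0.887, Cartpt at 2.13 ± 0.401 and Trh, with a median of 0.394 and a range of 0.0747 to 11.0 CPM per kb. Penk lay above Tac1, Tac1 above Nts and Cort above Tac2 in 10 of 10 libraries. Tac2 and Adcyap1 were not separated beyond their spread, since Tac2 was higher in 4 of 10 libraries, and Adcyap1 was above Crh in 7 of 10. Nts was above Pdyn in 8 of 10. Among other genes of the neuropeptide list, Cck (315 CPM per kb), Sst (299) and Npy (77.7) were above Penk. Crhbp, which binds the Crh peptide, was at 47.4 CPM per kb.

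**Figure D1:**
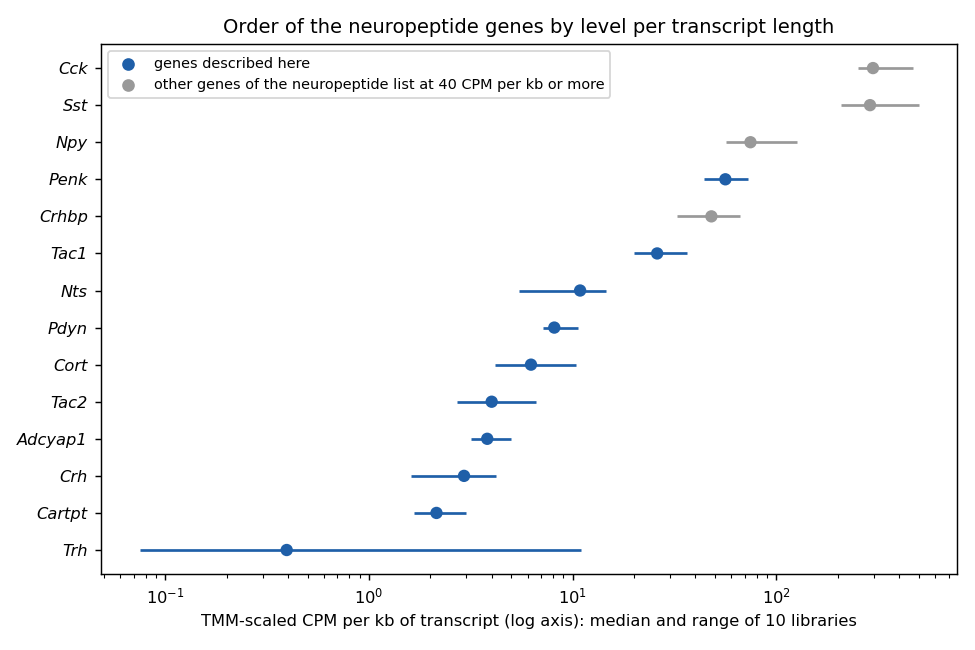
Level of each neuropeptide gene in TMM-scaled CPM per kilobase of transcript on a log axis, with a dot at the median and a line from the lowest to the highest of the 10 libraries. Penk leads the 10 genes (blue) at a mean of 56.3 CPM per kb, below Cck, Sst and Npy (grey), and Trh has the widest range, from 0.0747 to 11.0 CPM per kb.

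Of the opioid precursors, Penk encodes the enkephalins. Its levels, scaled by edgeR's TMM factors as all CPM values below, were 95.1, 57.8, 78.9, 88.9 and 58.5 CPM in vehicle replicates 1 to 5 and 81.6, 70.5, 73.9, 73.7 and 60.8 CPM in AM6545 replicates 1 to 5. Every AM6545 library lay inside the vehicle range, and the vehicle libraries were the more spread (75.9 ± 17.2 against 72.1 ± 7.51 CPM; SD, n = 5 each). The fitted difference, AM6545 minus vehicle, was -0.07 on the log2 scale (SE 0.138, 95% interval -0.36 to 0.22; edgeR quasi-likelihood test, adjusted p = 0.9998), so that an AM6545 level between 0.777 and 1.16 times vehicle is inside the interval. An exon of A830012C17Rik overlaps Penk on the opposite strand in GENCODE M21, and the sources used here do not say whether counting used strand, so reads of the pair may not be told apart. No such overlap was found for the other 9 genes.

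Pdyn encodes the dynorphins, which act on the kappa receptor. It measured 19.8, 21.9, 24.3, 25.4 and 17.0 CPM in the vehicle and 18.4, 18.9, 25.1, 18.7 and 17.8 CPM in the AM6545 libraries. Within AM6545, replicate 3 stood apart from the other 4, which lay between 17.8 and 18.9 CPM. The gap divided by the range of the group (Dixon's ratio) was 0.822 on log2 CPM, above the critical value of 0.71. Yet the same library lay inside the vehicle range, and the groups overlapped. The difference was -0.13 (SE 0.129, 95% interval -0.40 to 0.14; edgeR adjusted p = 0.9998).

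Among the tachykinins, Tac1 gives substance P and neurokinin A. Tac1 stood at 39.7, 21.8, 25.2, 34.1 and 26.6 CPM in vehicle and at 31.0, 39.3, 27.8, 28.8 and 25.9 CPM in AM6545 libraries. Vehicle replicate 1 and AM6545 replicate 2 were the highest of their groups, and all AM6545 values lay within the vehicle range. Its difference was 0.05 (SE 0.155, 95% interval -0.28 to 0.38; edgeR adjusted p = 0.9998). Tac2, which gives neurokinin B, was counted 37 to 92 times per library. Its levels were 4.46, 2.84, 2.18, 1.88 and 2.63 CPM in vehicle and 3.03, 3.72, 2.48, 2.79 and 1.83 CPM in AM6545 libraries. The highest library was vehicle replicate 1 and the lowest AM6545 replicate 5. With a difference of -0.01 (SE 0.245, 95% interval -0.53 to 0.51), the interval spans 0.692 to 1.42 times vehicle, wider than for the more deeply counted Penk and Tac1.

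Crh encodes corticotropin-releasing hormone, the peptide that starts the pituitary stress response and that hippocampal interneurons also release. Its levels were 4.71, 2.84, 3.94, 5.53 and 3.57 CPM in vehicle and 2.41, 5.37, 4.41, 3.79 and 2.13 CPM in AM6545 libraries. AM6545 replicates 1 and 5 lay below every vehicle library and the other 3 inside the vehicle range. The difference of -0.19 (SE 0.247, 95% interval -0.72 to 0.33; edgeR adjusted p = 0.9998) was smaller than the SD of log2 CPM within AM6545, 0.556 (n = 5). In CPM that group stood at 3.62 ± 1.36 (SD).

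Trh is best known from the hypothalamus, where its peptide controls the thyroid axis. It was counted 10, 4, 3, 5 and 21 times in the vehicle libraries, or 0.485, 0.189, 0.156, 0.205 and 0.892 CPM. In AM6545 libraries it was counted 391, 2, 11, 20 and 21 times, or 15.2, 0.103, 0.606, 0.832 and 1.04 CPM. AM6545 replicate 1 thus held 80.1% of all 488 Trh counts, at 14.6 times the next highest library and 31.3 times the median of the other 9 (0.485 CPM). AM6545 replicate 5 was also above every vehicle library, and AM6545 replicate 2 was below every one. The group means were 0.385 ± 0.312 CPM in vehicle and 3.55 ± 6.51 CPM in AM6545 (SD, n = 5 each).

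The fitted Trh difference of 3.20 (SE 1.33, 95% interval 0.15 to 6.24) was the highest among 14358 genes tested, with an unadjusted p of 0.0418 and an adjusted p of 0.9998 by edgeR's quasi-likelihood test. Without AM6545 replicate 1 it was 0.72 (95% interval -0.49 to 1.93; edgeR unadjusted p = 0.224). Leaving out vehicle replicate 1, 2, 3 or 4 in its place kept the size but gave unadjusted edgeR p-values of 0.0735, 0.0848, 0.0826 and 0.0842. Limma-voom with sample quality weights gave 1.79 (unadjusted p = 0.114). Trh was the gene that exceeded the next library most in AM6545 replicate 1, by 3.76 on the log2 scale (prior count 2). Only 2 tested genes were over 4-fold above the next library in any of the 10 libraries, Trh and Cbln3, both in AM6545 replicate 1.

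Cbln3 is a gene of cerebellar granule cells, and other cerebellar genes were high in the same library. Of 12 cerebellar markers, a list made after Cbln3 was seen, 9 were highest in AM6545 replicate 1. The 9 include Cbln3 itself. Over all genes tested, 7.79% were highest in that library, a share that leaves out markers not tested, such as Gabra6 and Pcp2. Zic1, Zic2 and Barhl1 of the list were not highest there. Zic1 was lowest there, at 1.09 CPM, and highest in AM6545 replicate 5, at 9.44 CPM. The summed level of the 12 markers in AM6545 replicate 1 was 45.8 CPM, against 15.1 to 21.0 CPM in vehicle and 19.4 to 27.2 CPM in the other AM6545 libraries. Gabra6, a GABA receptor subunit of cerebellar granule cells, was at 3.65 CPM there, at 0 in 7 libraries and at no more than 0.0850 CPM in the other two. Cbln3 was at 3.38 CPM against 0.243 to 0.707 CPM in the other 9 libraries. Pcp2, a Purkinje cell gene, was at 1.52 CPM against 0 to 0.310, and Car8, also a Purkinje cell gene, at 20.7 CPM against 5.98 to 10.6. Markers of the hypothalamus, a region that makes Trh, summed to 4.93 CPM in this library, inside the range of 4.26 to 7.86 CPM over the vehicle libraries. Medial habenula markers, at 20.8 CPM, were also inside the vehicle range of 19.2 to 22.5 CPM. The part of the cerebellar genes in the Trh value was not tested. Trhr, the receptor gene for this peptide, was at 8.90 CPM in this library, its highest, against 4.95 to 7.78 CPM in the other 9.

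**Figure D2:**
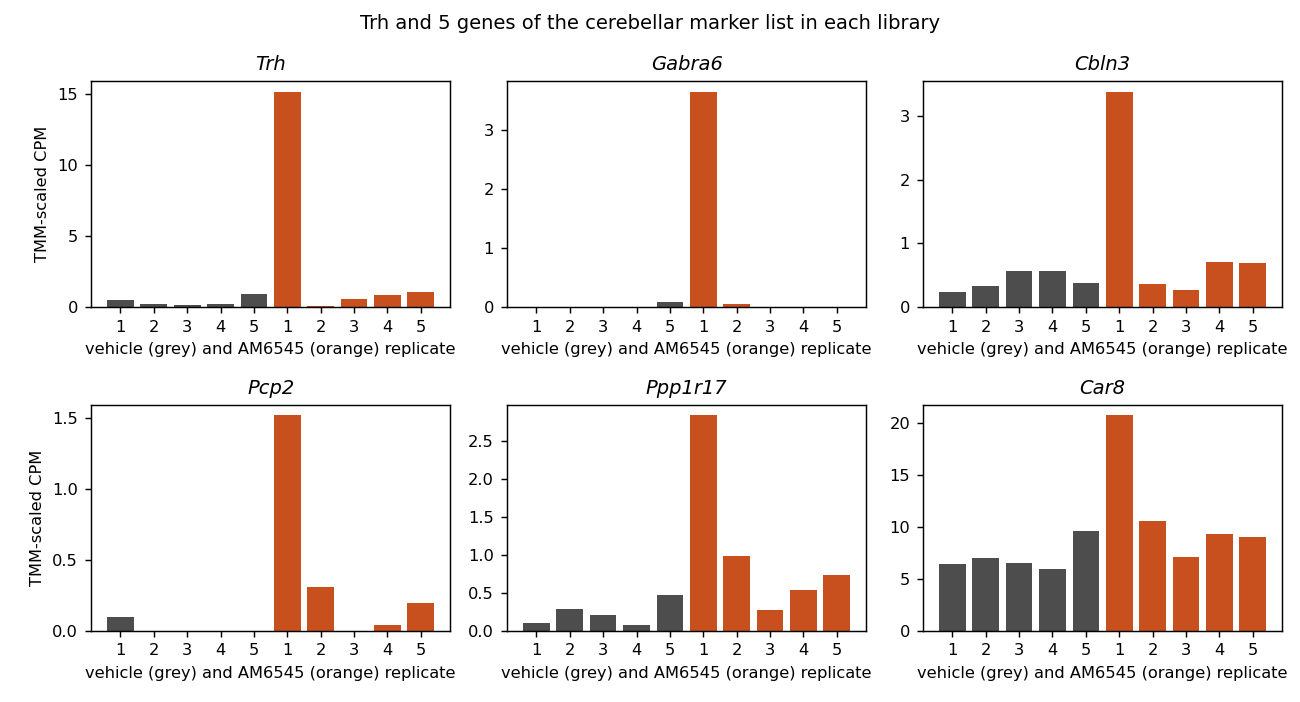
TMM-scaled CPM of Trh and of 5 genes of the cerebellar marker list (linear axes from 0), with 1 bar per library, vehicle replicates 1 to 5 in grey and AM6545 replicates 1 to 5 in orange. In each panel AM6545 replicate 1 has the tallest bar, at 15.2 CPM for Trh and 3.65 CPM for Gabra6. Zic1, Zic2 and Barhl1 of the same list, not shown, were not highest in that library.

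Adcyap1 measured 8.34, 12.3, 9.07, 8.68 and 7.73 CPM in vehicle and 10.1, 8.47, 10.9, 11.1 and 9.59 CPM in AM6545 libraries. In AM6545, 4 libraries were above 4 of the 5 vehicle libraries, but vehicle replicate 2 was above all of them. Its difference was 0.12 (SE 0.138, 95% interval -0.17 to 0.42; edgeR adjusted p = 0.9998), apart from Trh the furthest above 0 among the 10.

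Cartpt, named for its response to cocaine and amphetamine, stood at 3.25, 1.80, 2.33, 1.84 and 2.51 CPM in vehicle and at 1.90, 2.58, 2.48, 2.12 and 2.32 CPM in AM6545 libraries. All AM6545 values fell within the vehicle range, and the difference was -0.04 (SE 0.207, 95% interval -0.48 to 0.39). Cort, whose peptide cortistatin binds the somatostatin receptors, stood at 6.99, 3.22, 2.80, 4.59 and 4.59 CPM in vehicle and at 4.47, 3.98, 3.25, 4.91 and 3.61 CPM in AM6545 libraries. Vehicle replicate 1 was again the highest, and the groups overlapped with a difference of -0.13 (SE 0.220, 95% interval -0.60 to 0.33). Nts stood at 18.1, 12.3, 10.3, 14.8 and 12.9 CPM in vehicle and at 6.76, 14.2, 16.1, 11.7 and 15.7 CPM in AM6545 libraries. Here AM6545 replicate 1, the library with high Trh, was the lowest of all 10. The Nts difference was -0.09 (SE 0.203, 95% interval -0.52 to 0.34), and adjusted p-values of Cartpt, Cort and Nts by edgeR were all 0.9998.

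**Figure D3:**
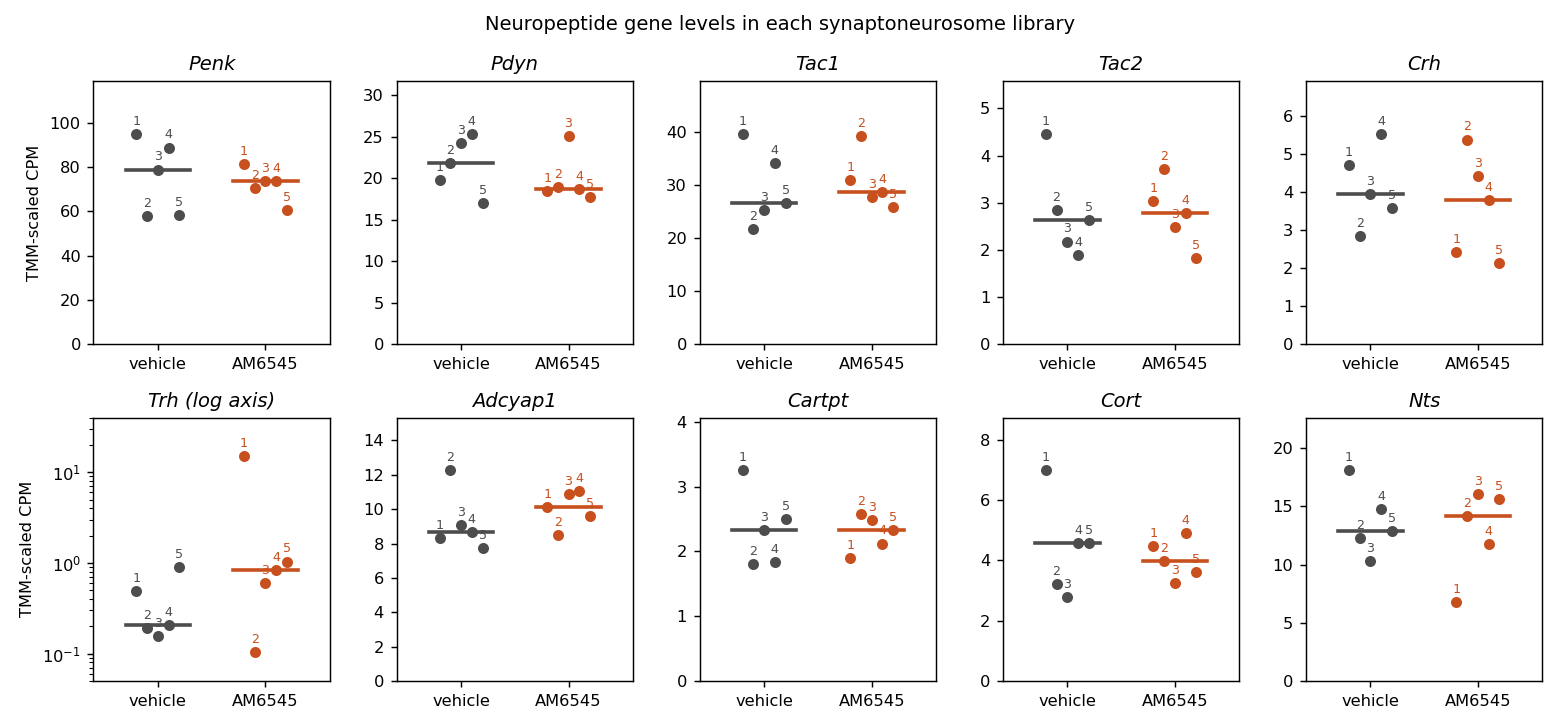
TMM-scaled CPM of the 10 genes, 1 panel each, with points numbered by replicate in the vehicle (grey) and AM6545 (orange) libraries and a bar at the group median; the Trh axis is logarithmic and the others start at 0. The groups overlap in all 10 panels, and vehicle replicate 1 is the highest point for Penk, Tac1, Tac2, Cartpt, Cort and Nts.

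Read against the whole table, 0 of the 10 genes passed an adjusted p of 0.05 in edgeR, as did 0 of 14358 genes (0%). At an unadjusted p under 0.05, 1 of 10 was called, Trh, higher in AM6545, where 1.14% of all genes were called higher and 0.738% lower, in all 270 genes (1.88%). DESeq2 called 0 genes adjusted and 276 unadjusted, and limma-voom called 1 gene adjusted, not one of the 10, and 706 unadjusted. In none of the 10 were the groups separate without overlap, which 42 genes (0.293%) showed. Of the 10 differences, 7 were below 0, as were 51.9% of all genes, with a median of -0.06 over the 10 and -0.01 over all genes tested. Without vehicle replicate 1, 2 of the 10 were below 0 and the median was 0.09.

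**Figure D4:**
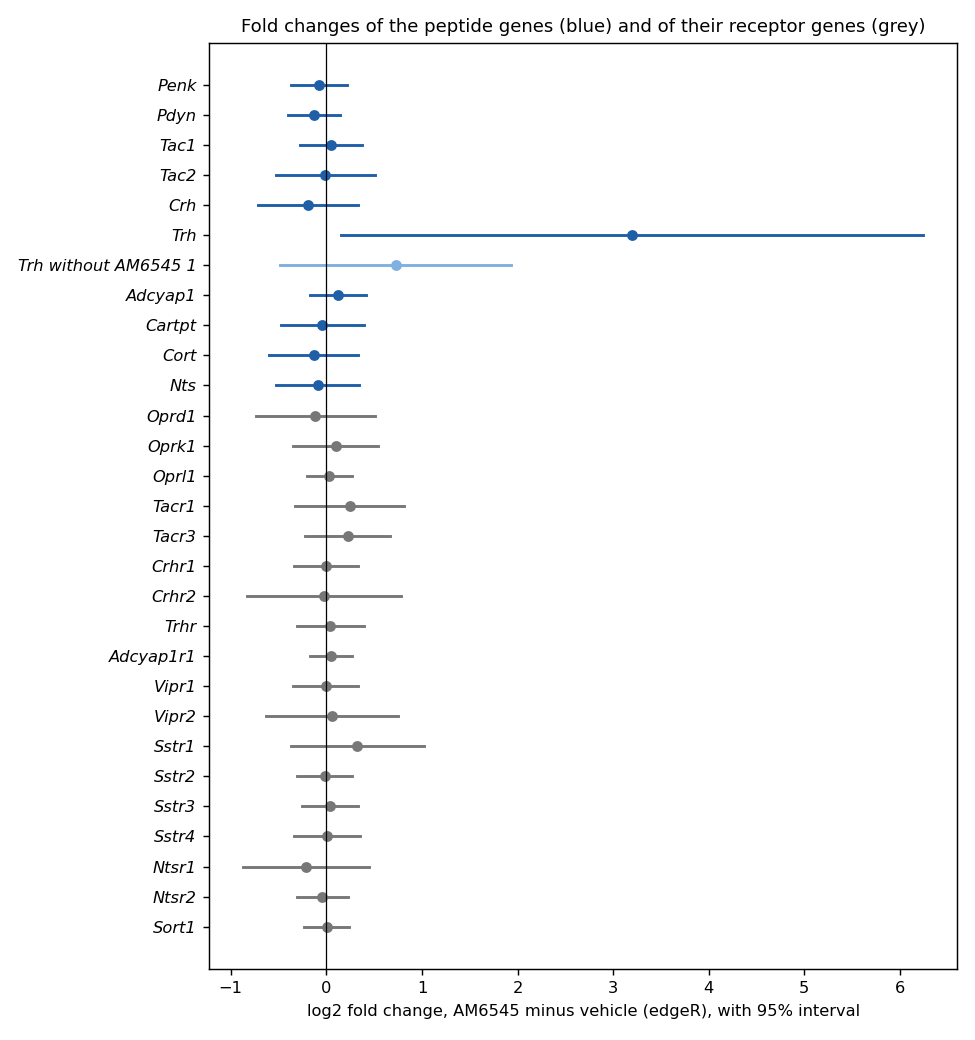
Log2 fold change, AM6545 minus vehicle, from edgeR with its 95% interval, for the 10 peptide genes (blue), Trh without AM6545 replicate 1 (light blue) and the 18 tested receptor genes (grey). All intervals but that of Trh with all libraries (0.15 to 6.24) include 0.

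The spread between libraries of a group differed widely among the 10. The within-group SD of log2 CPM was 0.210 for Adcyap1 and 0.216 for Pdyn, close to the median over all genes tested (0.213). It was 0.261 for Penk, 0.267 for Cartpt and 0.295 for Tac1. Cort (0.392), Tac2 (0.415), Nts (0.420) and Crh (0.468) lay between the percentiles 87.1 and 91.4 of all genes, and Trh (1.73) at percentile 99.8. On simulated counts for these libraries, edgeR called 45.5% of the genes given a 1.5-fold change and 85% of those given a 2-fold change. The changed genes were drawn at random from all genes tested, and the counts held no effects shared within a library. These shares therefore need not hold for the 10 genes.

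Vehicle replicate 1 was the highest of the 10 libraries for Penk, Tac1, Tac2, Cartpt, Cort and Nts, and the lowest for none of the 10. Over all genes tested, 25.1% were highest and 23.5% lowest in this library. The same library was the highest for 12 of the 16 tested genes of the other neuropeptide list, among them Sst at 359 CPM against 150 to 239 CPM in the other 9. Of the 18 tested receptor genes, 1 was highest and 6 were lowest there; the difference between these lists was not tested. Of the 14 interneuron markers, 5 were highest in vehicle replicate 1, the peptide genes Sst, Vip and Npy with Pvalb and Lamp5. In the same library 3 of the 14 were lowest, among them Dlx1, a transcription factor gene, and Adarb2, of the RNA-editing enzyme family.

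Transcript length moved with this difference. In vehicle replicate 1, the median gene with transcripts under 1 kb lay 0.55 above the median of the other 9 libraries on the log2 scale, genes of 1 to 2 kb 0.33 above, and genes of 2 to 4 kb and of 4 kb and over 0.10 and 0.18 below (-0.10 and -0.18). In no other library did a class lie further than 0.31 from the others (-0.31, genes under 1 kb in AM6545 replicate 1). Cort (677 bases) and Tac2 (678 bases) lay 0.80 and 0.74 above the other libraries in vehicle replicate 1. Tac1, Nts, Cartpt, Penk and Crh, of 1086 to 1320 bases, lay 0.31 to 0.52 above. Pdyn (2384 bases) lay 0.07 above, Adcyap1 (2453 bases) at -0.20 and Trh (1384 bases) at -0.27. The part of length in these values was not tested. Leaving out vehicle replicate 1 moved the differences of Penk, Tac2, Cartpt, Cort and Nts from below 0 to 0.02, 0.22, 0.10, 0.09 and 0.03, with unadjusted edgeR p-values of 0.346 or more.

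**Figure D5:**
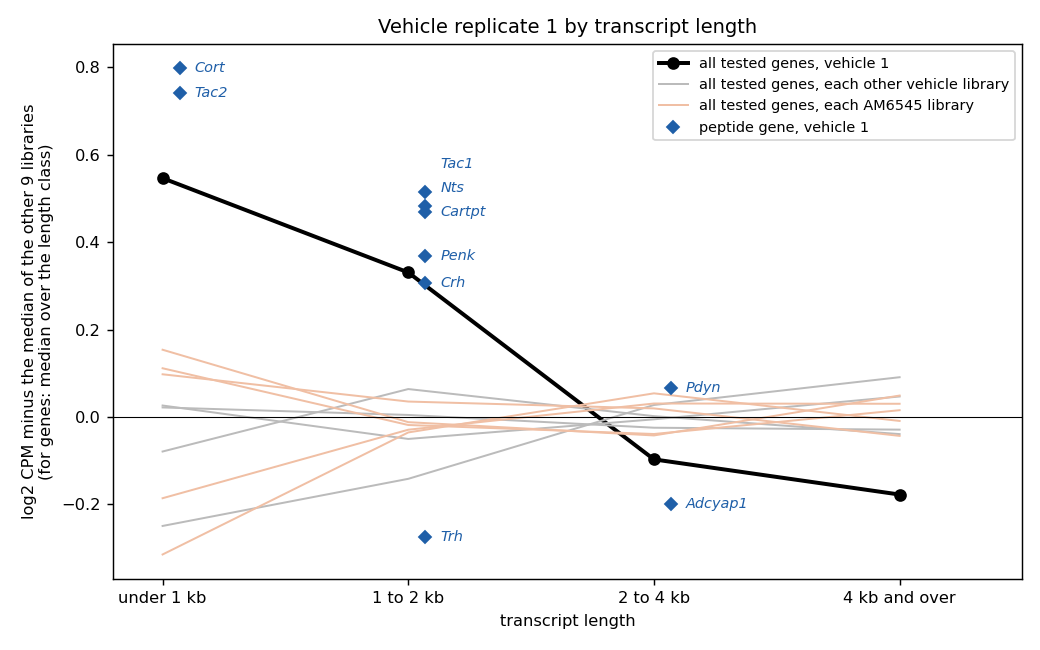
Difference of each library from the median of the other 9 in log2 CPM, as the median over all tested genes of a transcript length class (lines), with vehicle replicate 1 in black and the values of the 10 peptide genes in that library as blue diamonds. The black line runs from 0.55 for genes under 1 kb to -0.18 for genes of 4 kb and over, and Cort and Tac2, the shortest of the 10, are the highest diamonds.

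Across the 10 libraries the genes varied together only in part. Of 45 pairs, 29 had a Pearson correlation of log2 CPM above 0, with a median of 0.21. Tac1 and Cort (r = 0.69, Spearman's rho 0.70) and Penk and Tac1 (r = 0.69, rho 0.65) had the highest values, level with each other. Without vehicle replicate 1 these fell to 0.52 and 0.56, and Tac1 and Crh, at 0.61 with all libraries, led at 0.58. The lowest was -0.62, for Crh and Trh and for Trh and Nts. Trh and Nts stood at 0.27 once AM6545 replicate 1 was left out. These values share libraries and their depth and are given as a description over 10 points.

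Over all tested genes, the pattern most like Penk was that of Lamp5 (r = 0.96), an interneuron marker, followed by Rbm17 (0.96). The nearest were Rasl11b (0.97) and Eef2 (0.95) for Tac1, Znfx1 and Irs2 (both 0.96) for Tac2, M6pr (0.88) and Tmem33 (0.86) for Pdyn, and Pou3f2 (0.95) and Sec62 (0.91) for Crh. They were Ccdc137 (0.95) and Tmem132e (0.89) for Trh, Slc1a5 (0.92) and Endov (0.91) for Adcyap1, Ost4 and Rgs10 (both 0.97) for Cartpt, Slc25a26 (0.96) for Cort, and Xaf1 (0.96) and Hist3h2ba (0.94) for Nts. With 10 libraries such values are usual: the best match of a gene had a median r of 0.95 over all genes tested, and Spearman's rho kept 4 of the 20 genes the rule chose.

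The transcript table shows which forms carry the counts. Crh, Trh, Cort and Nts had 1 annotated transcript each, and Pdyn-201 (99.9%) and Tac2-201 (99.8%) held nearly all counts of their genes. Penk-201 held 81.5% and Penk-202 18.5%. The share of Penk-202 was 19.6% ± 1.68 over vehicle libraries and 17.6% ± 1.41 over AM6545 libraries (SD, n = 5 for both), with overlapping ranges. Tac1-205 held 73.2% and Tac1-203 25.8% of Tac1. For Adcyap1 most counts, 65.3%, were assigned to Adcyap1-203, annotated as a retained intron, and 32.5% to the coding Adcyap1-201. The Adcyap1-203 share was 64.3% ± 11.0 in vehicle and 66.4% ± 7.85 in AM6545 libraries, a difference within the spread. Cartpt-202 held 63.1% and Cartpt-201 36.9%, and Cartpt-201 was listed at 0 in vehicle replicate 2, where Cartpt-202 had 38 counts. Of 31848 transcripts tested, 1 (0.00314%) passed an adjusted p of 0.05 in edgeR, none of the 14 tested transcripts of these genes. Of these, Trh-201 alone had an unadjusted edgeR p under 0.05, with a difference of 3.20 on the log2 scale. Over all transcripts 627 (1.97%) did.

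The receptors of these peptides were all found, 22 of 22, and 18 passed the filter on low counts. None of the 18 passed the adjusted threshold in edgeR and none had an unadjusted p under 0.05. Their differences ran from -0.21 to 0.32 with a median of 0.02, 11 above and 7 below 0. Of the opioid receptors, the nociceptin receptor gene Oprl1 stood at 50.1 ± 7.21 CPM in vehicle libraries and at 51.1 ± 5.51 CPM in AM6545 ones (SD, n = 5 each; difference 0.03). The delta receptor gene Oprd1 stood at 2.48 and 2.26 CPM (-0.12) and the kappa receptor gene Oprk1 at 1.87 and 1.99 CPM (0.10) in the same order. The mu receptor gene Oprm1, at 1 to 10 counts per library, was not tested.

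Of the tachykinin receptors, Tacr1, which binds substance P, stood at 1.01 CPM in vehicle libraries and at 1.19 CPM in AM6545 ones (difference 0.24), and Tacr3, which binds neurokinin B, at 3.02 and 3.51 CPM (0.22). Tacr2 had 1 to 5 counts per library and was not tested. Crhr1 stood at 5.25 and 5.21 CPM (-0.01) and Crhr2 at 3.97 and 3.89 CPM (-0.03). Trhr stood at 6.73 and 6.90 CPM (0.04), and Trhr2, at 0 to 3 counts, was not tested. The PACAP receptor gene Adcyap1r1 stood at 53.6 and 55.6 CPM (0.05), Vipr1 at 6.54 and 6.50 CPM (-0.01) and Vipr2 at 0.805 and 0.852 CPM (0.06). The neurotensin receptors were Ntsr1 at 1.12 and 0.951 CPM (-0.21), Ntsr2 at 204 and 198 CPM (-0.04) and the sorting receptor Sort1, which also binds neurotensin, at 218 and 218 CPM (0.005). Per kilobase, Ntsr2 had 124 CPM, above the 10 peptide genes, and is known from astrocytes.

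Of the somatostatin receptors, which cortistatin binds, Sstr1 stood at 2.23 CPM in vehicle libraries and at 2.78 CPM in AM6545 ones (0.32), Sstr2 at 18.9 and 18.7 CPM (-0.02), Sstr3 at 14.9 and 15.3 CPM (0.04) and Sstr4 at 5.54 and 5.55 CPM (0.005). Sstr5 did not pass the filter, with 4 to 23 counts per library. It stood at 0.243, 0.284, 0.207, 0.409 and 0.297 CPM in vehicle and at 0.427, 0.413, 1.05, 0.541 and 1.14 CPM in AM6545 libraries. The groups did not overlap, although vehicle replicate 4 (0.409 CPM) and AM6545 replicate 2 (0.413 CPM) nearly met. Among the 14358 genes that passed the filter, 42 (0.293%) showed no overlap. Sstr5 is not one of these, and no such share was taken over unfiltered genes. With no filter, the difference was 1.26 (SE 0.417, 95% interval 0.40 to 2.13; edgeR unadjusted p = 0.00642, adjusted p = 0.9998), where 433 of 18729 genes had an unadjusted p under 0.05.

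Genes that make, store or break down peptides showed 0 of 20 tested (of 21) past the adjusted threshold in edgeR and 0 at an unadjusted p under 0.05, with a median of -0.0004. The most abundant were Cpe, the carboxypeptidase that trims the cut precursors, at 8308 ± 1026 CPM in vehicle libraries and at 8289 ± 1382 CPM in AM6545 ones, and Chgb, a vesicle granin, at 1372 ± 356 and 1274 ± 191 CPM (SD, n = 5 each). Of the other neuropeptide list, 16 of 31 were tested, 0 passed either threshold, and 12 differences were below 0, with a median of -0.13, beside 51.9% of all genes. Vehicle replicate 1 was the highest library for 12 of the 16, beside 25.1% of all genes tested. Without that library 6 of the 16 differences were below 0 and the median was 0.04. Its most abundant genes were Cck, at 225 ± 59.6 and 211 ± 28.7 CPM, and Sst, at 222 ± 80.6 and 209 ± 24.3 CPM. All 14 activity-regulated genes, which neurons switch on when they fire, were tested and 0 passed either threshold, with a median of 0.05. Egr1 stood at 167 ± 22.5 and 159 ± 53.6 CPM in vehicle and AM6545 libraries (SD, n = 5 each). Arc stood at 89.8 ± 18.9 CPM in vehicle libraries and differed by 0.16 on the log2 scale.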

How the data were processed

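Total RNA of hippocampal synaptoneurosomes was turned into libraries with a low-input SMARTer kit, as the labels' protocols state. The tables the authors deposited hold estimated counts per gene and per transcript for 10 libraries. Salmon 1.5.2 and the build mm10 are named in the submitters' processing notes. The annotation release and the use of strand are not given in the sources used here. Of the gene values, 38.6% were not whole, and estimated counts were rounded before fitting. Symbols were assigned to 22155 of 22255 identifiers without their version.

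Groups came from the sample titles. Groups were compared with TMM scaling in edgeR 4.0.16 (R 4.3.3), filterByExpr (minimum count 10, minimum total 15), group alone as design and robust two-sided quasi-likelihood tests. P-values were adjusted over all genes tested (Benjamini-Hochberg, threshold 0.05). All 10 genes passed the filter. The transcript table was fitted the same way. Transcript lengths from GENCODE M21, weighted by the deposited transcript counts, gave levels per kilobase. Log2 CPM values had a prior count of 2. Promoter windows were RefSeq's.

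The genes and all lists were chosen with earlier results of these data known. The cerebellar list and the values by transcript length were added after seeing the data. Named were the 10 genes, every receptor gene, the 2 tested genes most like each of the 10, and from the other lists the genes with an unadjusted p under 0.05 and the 2 of highest level, with markers of a list that moved with one of the 10. Other genes named (Npy, Crhbp, the markers Calb2, Drd2, Csf2rb2, Calcrl, Ajap1, Prkcd, Cux2, Aldh1l1 and Tshz2, Vip, Pvalb, Lamp5, Dlx1, Adarb2 in the account of levels, markers and vehicle replicate 1) were picked after their values were seen. Some genes that met a rule are not reported here.

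Alternatives were DESeq2 size factors, library totals alone, the DESeq2 1.42.0 Wald test, limma 3.58.1 voom with sample quality weights, other filters, the replicate number as a block and leaving out each library. The labels name no batch. On simulated counts over 14358 genes (4 runs of this comparison), 11 of 200 genes changed 1.25-fold, 91 of 200 changed 1.5-fold, 170 of 200 changed 2-fold and 187 of 200 changed 3-fold were called, with 15 of 56632 unchanged genes. Reads amplified with no molecular identifiers do not count independent molecules, and the error of the estimates themselves is not given in the tables.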

Additional observations from a re-analysis of the deposited data

Results flagged for a closer look

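Libraries were marked where the highest or lowest of the 5 in a group lay apart, with the gap divided by the group's range above 0.71, which chance gives in about 1 of 20 groups. For the 10 peptide genes this held in 1 of 20 groups on log2 CPM: Pdyn in AM6545 replicate 3 (0.822, and 0.846 on linear CPM), at 25.1 CPM against 17.8 to 18.9 CPM. That library also had the highest oligodendrocyte marker sum (28188 CPM). Its dentate granule cell marker sum was 495 CPM, against 378 to 440 CPM in the other AM6545 libraries (ratio 0.471, not marked). The vehicle libraries had dentate sums of 446 to 534 CPM. The part of either marker sum in the Pdyn value was not tested. On linear CPM, Trh in AM6545 replicate 1 was marked too (0.938). On log2 CPM its ratio was 0.598, below the limit, since AM6545 replicate 2 was low.

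Among receptor genes, 3 of 36 groups were marked: Tacr1 in AM6545 replicate 4 (0.839), at 1.83 CPM against 0.982 to 1.09 CPM, Vipr2 in vehicle replicate 4 (0.817), at 1.43 CPM against 0.615 to 0.722 CPM, and Sstr1 in vehicle replicate 1 (0.796), at 1.12 CPM against 2.29 to 2.75 CPM. Among marker sums, 3 of 34 were marked: oligodendrocyte markers in vehicle replicate 3 (0.804), endothelial markers in AM6545 replicate 5 (0.840), at 39.9 CPM against 22.4 to 25.2 CPM, and red blood cell markers in AM6545 replicate 3 (0.862), at 1334 CPM against 329 to 467 CPM. None of these libraries is the one with high Trh. The cerebellar marker sum of that library, AM6545 replicate 1, had a ratio of 0.705, just below the limit.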

How the results depend on the processing

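No member gene passed the adjusted threshold under any of the alternatives that tested it. Over all genes, limma-voom called 1 gene, and leaving out 1 library gave 0 to 1 genes. Of transcripts, the DESeq2 Wald test called 11, at least 10 counts in every library 0, and leaving out 1 library 0 to 4. Libraries standing apart numbered 2 on linear CPM. Differences near 0 changed sign. Under limma-voom Penk was 0.074, Tac2 0.14 and Cort 0.11. Leaving out 1 library gave ranges of -0.16 to 0.022 for Penk, -0.056 to 0.18 for Tac1, -0.14 to 0.22 for Tac2, -0.12 to 0.10 for Cartpt, -0.26 to 0.089 for Cort and -0.18 to 0.067 for Nts. The cause was not tested. Pdyn and Crh stayed below 0 and Adcyap1 and Trh above 0 under all alternatives that tested them. Trh was not tested with at least 10 counts in every library, and DESeq2 gave no p for it.

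With the replicate number as a block, 0 transcripts passed, Tac2 was 0.0068 and Trh 2.13 (edgeR unadjusted p = 0.0248, adjusted p = 0.9997). Libraries of the same number share only that number: their deviations correlated at -0.14, -0.19, 0.23, 0.39 and 0.07, and not every library correlated best with its own number. With 2 to 21 Trh counts in the other 9 libraries, the interval of its difference without AM6545 replicate 1 ran from -0.49 to 1.93. Differences between these limits thus remain possible. The parts of depth and of the spread between libraries in this width were not tested.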
